A study of Mus musculus with 192 samples.

Results

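Fatty acid and sterol metabolism genes were followed across voxels, small cubes cut from a section of mouse brain. They were chosen by symbol alone: acyl-CoA synthetases, dehydrogenases and thioesterases, fatty acid synthase and ATP citrate lyase, elongases and desaturases, enzymes of sterol synthesis, oxysterol-binding proteins, fatty acid-binding proteins and apolipoproteins. The patterns caught 55 gene symbols, and 50 of these were measured on 80% or more of each dataset's arrays, out of 15608 genes tested in all. Of the 50, 9 were averages of several rows of the table and 41 rested on 1 row. Apobec1, an RNA editing enzyme, was caught by the apolipoprotein pattern and is counted apart from the apolipoproteins.

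The animals were C57BL/6 male mice of postnatal day 56. Each array set voxel RNA, extracted with Trizol, against whole mouse brain RNA. A position such as C8 is a row (letters A to G) and a column (1 to 11) of the grid, and the labels give no anatomical directions. The arrays form 3 datasets, harvested independently, of 59, 68 and 65, with voxel RNA in Cy3 in datasets 1 and 3 and in Cy5 in dataset 2. Of 68 positions, 56 have an array in every dataset and 12 lack 1 dataset. The labels call the voxel material pooled, so a value belongs to no single animal that could be named here, and the dye and the dataset cannot be told apart.

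Fatty acids are built from acetyl-CoA by fatty acid synthase, lengthened by elongases and given double bonds by desaturases, and acyl-CoA synthetases activate them for storage, for membrane lipids or for oxidation in mitochondria. The brain makes its own cholesterol, since the lipoproteins of blood do not cross the blood-brain barrier, and much of its sterol lies in the myelin that oligodendrocytes wrap around axons. Stearoyl-CoA desaturase, the enzyme that Scd2 encodes in brain, makes the monounsaturated fatty acids of membranes and myelin.

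Synthesis genes of this kind are known targets of the SREBP family of sterol-sensing factors, and their promoters often pair a sterol regulatory element with a CCAAT box. The 250 bases before the start of 3 members are shown: Acsbg1, a synthetase gene that differed among positions, Fasn, the member with the map most like that of Scd2, and Hmgcs1, the 1 member with the sterol element TCACNCCAC. They are RefSeq sequences of build GRCm38.p6, read 5′ to 3′ on the gene's strand: Fasn at chr11:120824548-120824797 (minus), Acsbg1 at chr9:54661886-54662135 (minus) and Hmgcs1 at chr13:119690101-119690350 (plus). Capitals mark CCAAT or TCACNCCAC on either strand, so that ATTGG is CCAAT on the other strand.
Fasn: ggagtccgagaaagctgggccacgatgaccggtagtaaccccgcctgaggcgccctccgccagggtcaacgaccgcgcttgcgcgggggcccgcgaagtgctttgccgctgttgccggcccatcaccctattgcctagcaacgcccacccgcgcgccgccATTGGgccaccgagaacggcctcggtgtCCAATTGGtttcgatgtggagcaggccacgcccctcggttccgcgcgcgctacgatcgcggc
Acsbg1: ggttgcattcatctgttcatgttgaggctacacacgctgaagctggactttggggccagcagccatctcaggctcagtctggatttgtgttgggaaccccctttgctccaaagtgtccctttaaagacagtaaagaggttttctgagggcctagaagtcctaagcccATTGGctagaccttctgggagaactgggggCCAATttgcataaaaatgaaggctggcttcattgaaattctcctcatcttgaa
Hmgcs1: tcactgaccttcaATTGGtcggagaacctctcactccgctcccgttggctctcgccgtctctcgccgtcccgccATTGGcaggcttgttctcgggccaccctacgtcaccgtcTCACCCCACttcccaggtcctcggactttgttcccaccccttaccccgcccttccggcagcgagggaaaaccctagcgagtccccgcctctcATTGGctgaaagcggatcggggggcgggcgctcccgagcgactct
Fasn, the fatty acid synthase gene, held CCAAT at 90, 62 and 59 bases before its start, where the matches at 62 and 59 overlap on opposite strands. Acsbg1 held it at 83 and 53 bases. Hmgcs1, which encodes the enzyme that makes hydroxymethylglutaryl-CoA, held it at 237, 176 and 45 bases and held TCACCCCAC at 137 bases. Promoters were found for 41 of the 50 members. CCAAT occurred in 18 of the 41 (43.9%), against 33.8% of 32851 promoters of the same length, and TCACNCCAC in 1 of the 41, against 1.05% of all. Members were counted as genes with a match in any of their promoters, but the background as single promoters. The shares are therefore unlike measures, and a gene with several promoters had more occasions for a match. A match describes these letters and is not evidence of a bound site.

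Values are the authors' centred log2 ratios. For position, row and column values, maps and counts of single arrays, each gene was also centred on its mean within each dataset. Zone means lack this step, so they cannot be set beside the position, row and column values. A higher value is likely to stand for more RNA in the voxel, although the sources used here do not state which channel is the numerator. Each row of the table was centred on its own median, so values compare positions for 1 gene and never 1 gene with another. A position value is the mean over datasets with its SD, and n = 3 unless n = 2 is given. In bulk voxels, fewer cells of a type and less RNA per cell cannot be told apart. Arrays of 1 dataset correlated at a median of 0.140, and the lowest pair at -0.45, with 0.0824% of pairs under -0.3. The sign was left as deposited, since dyes are stated in the labels and positions could oppose each other. In dataset 2 the values of D1 to D7 followed the other datasets better in reversed column order (r = 0.676 over 298 genes chosen without dataset 2) than as labelled (r = -0.12). The reversed order also had the higher r in dataset 3 (0.401 against 0.213), but not in dataset 1 (0.275 against 0.343). The order was left as labelled. Member counts among positions and the Scd2 zone differences that use row D are also given without 6 of the dataset 2 arrays. Row, column and position means, map correlations and r with Scd2 use every array as labelled.

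The first question was which of these genes differed among positions. Scd2 and Acsbg1 did. They are 2 of the 50 members (4%), against 768 of all 15608 genes (4.92%), by limma's moderated F test with dataset as a block and Benjamini-Hochberg adjustment over all genes at 0.05. At an unadjusted p under 0.05 there were 8 members (16%), against 13.3% of all genes. The median F was 1.09 over the members and 1.04 over all genes, and the median range between the highest and lowest position was 1.51 for the members and 1.56 for all genes on the log2 scale. A member's map correlated above 0 in every pair of datasets for 12 of 50 members (24%), against 22.9% of all genes. The share of members called was near that of all genes. Without the 6 row D arrays of dataset 2, 5 members were called, Fdps, Fasn and Acot7 beside Scd2 and Acsbg1, against 4.76% of all genes.

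**Figure D1:**
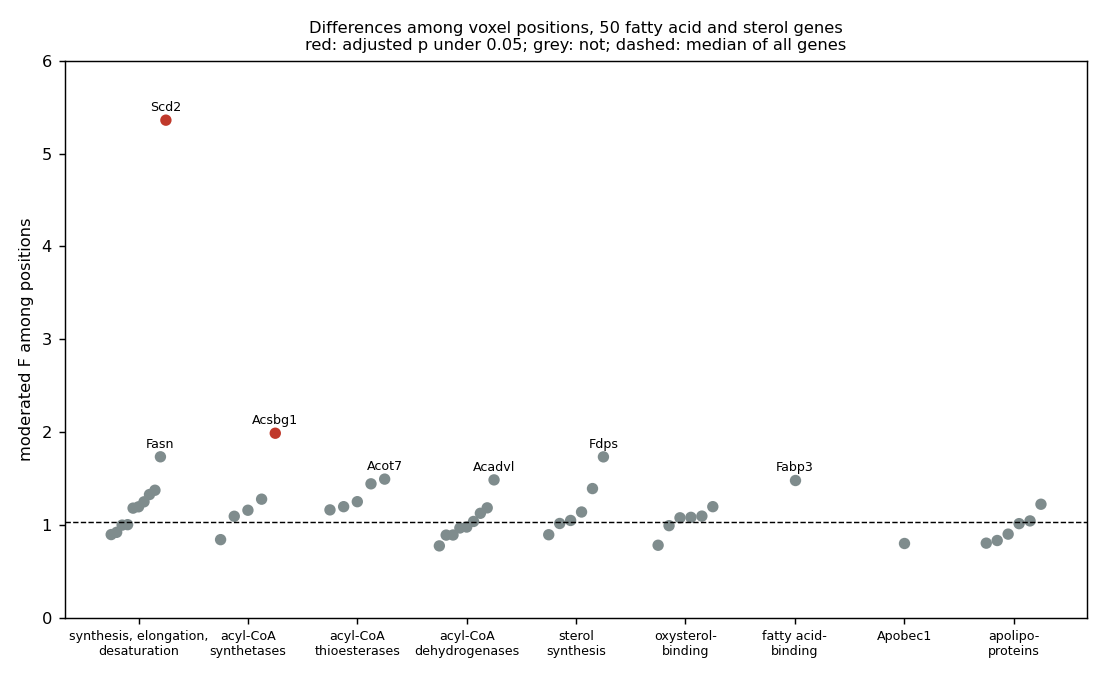
Each point is 1 of the 50 members, placed by role on the x axis, with the moderated F for differences among voxel positions on the y axis; red points had an adjusted p under 0.05 and the dashed line is the median of all genes tested. Scd2 stands at 5.36 and Acsbg1 at 1.99, while every other member lies at or below 1.73.

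Scd2 had the largest F of the members, 5.36 over all arrays (adjusted p = 1.2e-13), and 37 of all genes had a smaller p. In dataset 1 its centred log2 ratios ran from -1.06 at G2 over a median of -0.06 to 1.07 at C8. In dataset 2 they ran from -1.90 at A10 over a median of 0.08 to 1.65 at F4, and in dataset 3 from -1.56 at G9 over a median of 0.01 to 1.17 at E8. C8 was the highest position of dataset 1 and the second of dataset 2, and C4 was the third in datasets 2 and 3. The maps of the datasets correlated with each other at r = 0.621 (1 and 2), 0.731 (1 and 3) and 0.595 (2 and 3). These correlations are descriptions over shared positions.

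On the means over datasets, Scd2 was highest at 2 separate places in row C. At C8 the centred log2 ratios were 1.07, 1.57 and 1.00 in datasets 1 to 3, a mean of 1.21 ± 0.31. At C4 they were 0.77, 1.47 and 1.11 (1.11 ± 0.35). Their neighbours D4 (0.88 ± 0.15) and B8 (0.76 ± 0.04) followed. These 4 positions were above 0 in every dataset. The lowest positions all lay on the rim of the grid. Scd2 stood at -1.4 ± 0.70 at A10 (n = 2, values -1.90 and -0.90), at -1.17 ± 0.63 at G3, at -1.15 ± 0.54 at C1 and at -1.11 ± 0.34 at E1. These positions were picked from the same values, here and for the other genes below, so that their distance from each other is a description.

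**Figure D2:**
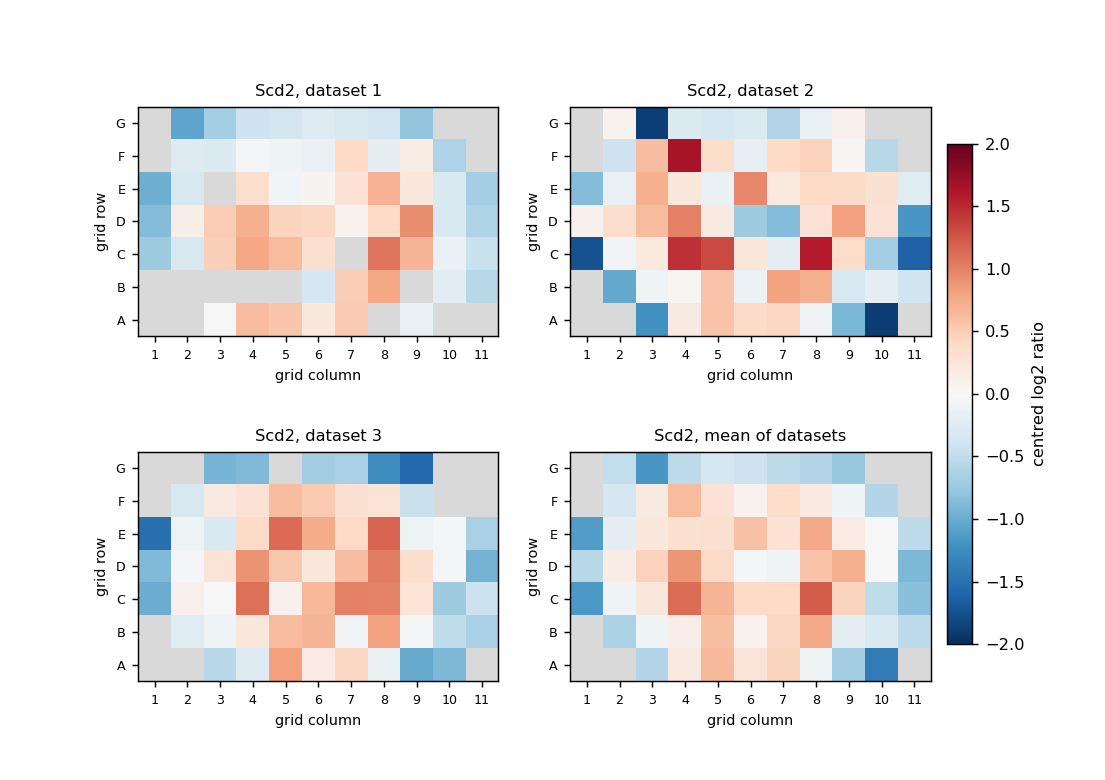
Grid maps of Scd2 in datasets 1 to 3 and their mean, with grid column on the x axis, grid row on the y axis and the centred log2 ratio as colour; grey cells were not measured. High values lie around C4 and C8 (means 1.11 and 1.21), and low values lie on the left, right and row G margins.

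By column, Scd2 was low at both ends and above 0 from column 4 to column 8 on the means. The column means were -0.94 ± 0.16 in column 1, 0.40 ± 0.19 in column 4 and 0.39 ± 0.23 in column 5. They stood at 0.14 ± 0.16 in column 6 and at 0.42 ± 0.03 in column 8, and reached -0.70 ± 0.15 in column 11. Column 8 was above column 6 in each dataset (0.39, 0.46 and 0.41 against 0.04, 0.04 and 0.32), with row D of dataset 2 taken as labelled. Column 4 was above column 6 in datasets 1 and 2 (0.33 and 0.61 against 0.04 and 0.04) but not in dataset 3 (0.25 against 0.32), so this difference is within the spread between datasets. The highest column was column 8 in dataset 1, column 4 in dataset 2 (0.61) and column 5 in dataset 3 (0.64), so the datasets do not share 1 order of these columns. By row, Scd2 stood between -0.07 (row A) and 0.17 (row C) in rows A to F and at -0.65 ± 0.30 in row G, and in each dataset row G was the lowest row (-0.53, -0.42 and -0.99).

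The remaining genes of synthesis, elongation and desaturation did not pass the test among positions: 1 of the 11 in this role was called, Scd2. Fasn came closest, with an F of 1.73 (adjusted p = 0.0738), and was called in 4 of 16 alternatives (adjusted p down to 0.0174). Its highest position mean was 0.47 ± 0.08 at B5 (n = 2) and its lowest -0.58 ± 0.53 at B11, where dataset 1 had -1.2 and the others -0.27 and -0.28. Fasn column means were 0.12 ± 0.01 in column 4, 0.18 ± 0.04 in column 5 and 0.18 ± 0.03 in column 6, and columns 5 and 6 were its highest on the means. Fasn rests on 2 rows whose values correlated at only 0.03 over arrays, and neither row was called alone (adjusted p = 0.506 and 0.208). Acly, which makes cytosolic acetyl-CoA from citrate, had the smallest F of this role (0.896). The elongase gene Elovl6 rests on 5 rows that correlated at between -0.50 and 0.34, so its mean over rows is uncertain.

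Among the 5 acyl-CoA synthetases, which join fatty acids to coenzyme A, Acsbg1 was called. This gene encodes the bubblegum-type synthetase known from brain, and its F was 1.99 over 191 arrays (adjusted p = 0.0137). Acsbg1 was highest at C8, with 0.42, 1.5 and 0.53 in datasets 1 to 3 (0.82 ± 0.59), and next at C4, with 0.33, 1.17 and 0.43 (0.64 ± 0.46). At A7 Acsbg1 had 1.29, 0.36 and 0.21 (0.62 ± 0.59), and it was lowest at E7 (-0.65 ± 0.75), where dataset 1 alone had -1.48. The 3 high positions were above 0 in every dataset, but their spread between datasets was nearly as large as their means. By row mean, Acsbg1 stood highest in row A (0.54, 0.26 and 0.25 in datasets 1 to 3) and lowest in row E (-0.41, -0.12 and -0.17), although row G was lower than row E in dataset 3 (-0.23). The call of Acsbg1 was lost without dataset 1 (adjusted p = 0.821), without dataset 2 (0.213), without dataset 3 (0.0893) and without the dataset block (0.097). Acsl3, a long-chain synthetase gene, had the smallest F of this role (0.841).

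None of the 5 acyl-CoA thioesterases, which release fatty acids from coenzyme A, passed the adjusted test. Acot7, the thioesterase best known from brain, had the largest F (1.49, adjusted p = 0.264). Acot7 stood at 0.92, 1.23 and 0.48 at C5 (0.88 ± 0.37) and at -0.36, -1.30 and -0.60 at E4 (-0.76 ± 0.49), the ends of its map. Acot2, a mitochondrial thioesterase, had an unadjusted p of 0.0391 (adjusted 0.326), and Acot9 had the smallest F of the role (1.16). Without the 6 row D arrays of dataset 2, Acot7 had an adjusted p of 0.0462.

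None of the 9 acyl-CoA dehydrogenases, which take the first step of mitochondrial beta-oxidation or act on branched amino acid intermediates, passed. Acadvl, the very-long-chain enzyme, had the largest F (1.49, adjusted p = 0.275). Acadvl stood at 0.70, 0.61 and 0.66 at E7 (0.66 ± 0.04) and at -0.57 and -0.60 at A10 (-0.59 ± 0.02, n = 2), a small spread at both ends. Acad10 had the smallest F of all members (0.774) and was measured on 171 arrays.

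None of the 6 genes of sterol and ketone body synthesis passed the test among positions. Fdps, which makes farnesyl diphosphate, the branch point of the mevalonate pathway, had an F of 1.73 (adjusted p = 0.0740). Fdps was highest at C8 with 0.50, 0.59 and 1.29 (0.79 ± 0.43) and next at C4 with 0.84, 0.41 and 0.83 (0.69 ± 0.24), and lowest at E11 with -1.09, -0.68 and -0.77 (-0.85 ± 0.21). Both high positions lay above 0 and E11 below 0 in every dataset. C8 and C4 were also the highest positions of Scd2 and Acsbg1. They are not particular to these members: Ywhaq, Aldoc and Hbb-b1 were highest at C8, and Qdpr, Cryab and Slc1a3 at C4. Other marker genes were highest elsewhere. At D6, by contrast, Fdps had 2.34 in dataset 3 but -0.22 and -0.45 in datasets 1 and 2. Without the 6 row D arrays of dataset 2 the adjusted p of Fdps was 0.0156, and without dataset 1 it was 1.00. Fdps was called in 6 of 16 alternatives (adjusted p down to 0.00296). Hmgcs1 (F 1.39, adjusted p = 0.397) rests on 2 rows that correlated at -0.25, and Cyp51, a sterol demethylase gene, had the smallest F of the role (0.894).

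None of the 6 oxysterol-binding proteins, which carry sterols and lipids between membranes, was called, with Osbpl11 highest (F 1.2) and Osbpl9 lowest (0.781). Fabp3, the fatty acid-binding protein of heart and neurons, had an F of 1.48 (adjusted p = 0.275). Fabp3 was lowest at E4, with -0.28, -0.48 and -0.49, and highest at G9, with 0.07, 0.35 and 1.29. Its 2 rows correlated at -0.13, and 1 of them was called when tested alone (F 2.09, adjusted p = 0.0068). None of the 6 apolipoproteins was called: Apoa4 had the largest F (1.22) and Apol7b the smallest (0.804). The highest position of Apoa4, 2.10 ± 2.60 at G3 (n = 2), was smaller than its own SD. Apobec1 had an F of 0.803.

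The 5 symbols left out had too few measured arrays. Dhcr7, the last enzyme of cholesterol synthesis, was measured on 79.4% of arrays of dataset 2, just outside the limit of 80%. Apoa5 had 72.3% in dataset 3, Osbp 69.2% in dataset 3, Apol9a 73.5% in dataset 2 and Elovl1 57.6% in dataset 1 and 73.5% in dataset 2. Inside the limit, Acot10 was measured on 163 arrays, the fewest of any member.

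**Figure D3:**
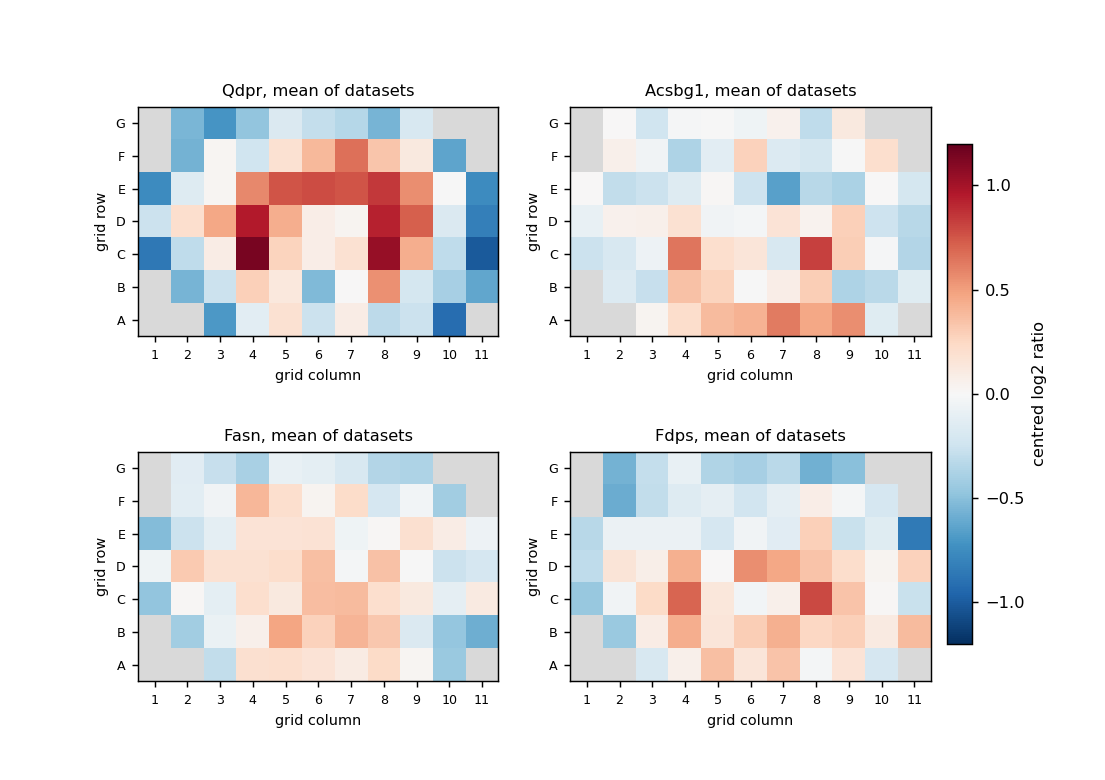
Grid maps of position means over the datasets for Qdpr, Acsbg1, Fasn and Fdps, with grid column on the x axis, grid row on the y axis and the centred log2 ratio as colour; grey cells were not measured. C4 and C8 are high for Qdpr, Acsbg1 and Fdps (0.64 to 1.14), while Fasn is highest at B5 (0.47).

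The rim of the grid was then set against its inside. The perimeter held 26 positions with at least 1 neighbour outside the grid, and the interior 42. The difference was taken within each dataset and tested with limma over the 3 datasets, two-sided. Scd2 was lower at the perimeter: its perimeter means were -0.16, -0.63 and -0.84 in datasets 1 to 3, and its interior means 0.42, 0.23 and 0.11. Perimeter and interior means did not overlap within or across datasets. The difference was -0.80 ± 0.19 (SD, n = 3; adjusted p = 0.0389), or 1.74-fold lower. Among single arrays, with Scd2 centred on its mean within each dataset and not as in the zone means, the zones did overlap. Above 0 lay 5 of 23 perimeter arrays of dataset 1, 7 of 26 of dataset 2 and 3 of 23 of dataset 3. In the interior these were 23 of 36, 30 of 42 and 30 of 42 arrays.

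Scd2 was thus 1 of the 50 members (2%) called in this comparison, against 17 of all genes (0.109%), all of them lower at the perimeter (0.109%). At an unadjusted p under 0.05 there were 6 members (12%), against 13.4% of all genes. The median difference was -0.01 over the members and 0.03 over all genes, with members on both sides of 0. Lower at the perimeter in every dataset were 12 of the 50 members, a larger share than the 15.9% of all genes. Higher in every dataset were 8 of the 50, a smaller share than the 20.8% of all genes. The adjusted p of Scd2 was above 0.05 without dataset 2 (0.349) and without dataset 3 (0.171), and was 0.0046 without dataset 1. It was also above 0.05 with floor values kept (0.175), with rows measured on at least 50% of arrays (0.065) and without the dataset block (1.00). Without the 6 row D arrays of dataset 2 the Scd2 difference was -0.82 ± 0.21 (adjusted p = 0.0431), and 0.115% of all genes were called. The size of its difference stayed between -0.91 and -0.73 over all alternatives.

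The other members with the largest differences between perimeter and interior were not called. Fdps stood at -0.22, -0.34 and -0.37 in datasets 1 to 3 (-0.31 ± 0.08, adjusted p = 0.221). Acadm, the medium-chain dehydrogenase gene, stood at -0.27, -0.29 and -0.30 (-0.29 ± 0.02, adjusted p = 0.227). Fasn had a difference of -0.27 ± 0.17 (adjusted p = 0.287). In the opposite direction, Elovl2, an elongase of polyunsaturated fatty acids, had 0.34 ± 0.24 (adjusted p = 0.267), Acsl4, an arachidonate-preferring synthetase, 0.23 ± 0.09 (0.309), and Apoa4 0.21 ± 0.22 (0.424). Each of these differences had the same sign in all datasets. Acsbg1, called among positions, had a difference of only 0.05 ± 0.13 (adjusted p = 0.820) with mixed signs.

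**Figure D4:**
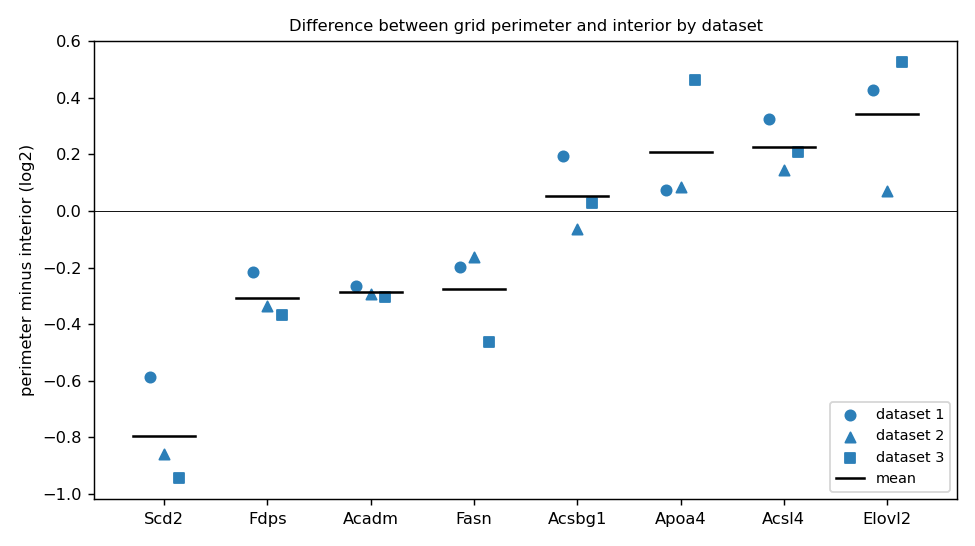
Difference between perimeter and interior means (log2, y axis) for 8 members on the x axis, with 1 point per dataset and the mean as a bar. All Scd2 points lie between -0.94 and -0.59, below those of every other member shown.

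The genes that fell at the perimeter together with Scd2 included markers of myelin-forming cells. Of the oligodendrocyte and myelin marker list, 4 of 10 genes were measured, and 3 were both called among positions and lower at the perimeter: Bcas1 (-1.19 ± 0.15), Cryab (-1.16 ± 0.30) and Qdpr (-0.76 ± 0.13). The mean of the 4 lay between -0.83 and -0.36 at the perimeter and between 0.13 and 0.38 in the interior over the datasets. Mbp, the myelin basic protein gene and the defining marker of the list, was not called among positions (F 1.02, adjusted p = 0.861). Its difference between perimeter and interior, -0.12 ± 0.08, was not called either (limma, adjusted p = 0.559). The part of oligodendrocyte content in the Scd2 difference was not tested. Among the remaining genes lower at the perimeter, named here after their values were seen, were Tspan2 (-1.06 ± 0.29), Cd9 (-0.84 ± 0.16), Gatm (-0.80 ± 0.13) and Ndrg1 (-0.80 ± 0.04), and also Ppp1r1b (-1.10 ± 0.09), whose product is known from striatal neurons. The largest difference of all genes called was that of Syndig1l (-1.21 ± 0.18). Fth1, Lpar1, Septin4, Tgfa and rows without a single symbol were called too.

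None of the measured genes of the other cell type lists was called between perimeter and interior, and the mean differences of these lists were smaller than that of the oligodendrocyte list (-0.81 ± 0.14). Of the astrocyte list 4 of 8 were measured, with list means of -0.13 to 0.00 at the perimeter and 0.06 to 0.09 in the interior. Of the neuron list 3 of 6 were measured (-0.03 to 0.03 against 0.01 to 0.05), and of the microglia list 2 of 5 (-0.32 to 0.03 against -0.01 to 0.25). The lists for choroid plexus (2 of 5 measured), vessels and blood (2 of 5) and meninges (3 of 4) had differences of -0.29 ± 0.20, -0.08 ± 0.03 and -0.02 ± 0.11. The choroid plexus mean joins 2 unlike genes, Ttr at -0.72 ± 0.36 (limma, adjusted p = 0.144) and Folr1 at 0.14 ± 0.14. Ttr alone thus had a difference near that of Qdpr (-0.76), without a call. Array quality moved with the zones unevenly: the median share of values missing or at the floor was 1.27% at the perimeter and 1.80% in the interior of dataset 1, 2.46% and 1.75% in dataset 2, and 1.82% and 0.771% in dataset 3. Its part in the Scd2 difference was not tested.

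Over 68 position means and among the 8446 other genes with a symbol, the genes with the maps most like that of Scd2 by Pearson's r were Ywhaq (0.93), Rnf13 (0.89), Rnf130 (0.89), Tmbim6 (0.89), Gstp1 (0.87) and Qdpr (0.87). The maps least like it were those of Sorbs2 (-0.72), Nol4 (-0.71) and Cacna2d1 (-0.69). These r values are descriptions over points that share arrays, and an array's own quality enters both genes. Over all genes the median r with Scd2 was -0.06, with 5th and 95th percentiles of -0.43 and 0.47. Bcas1 (0.82) and Cryab (0.86) stood in the upper tail, while Mbp had 0.13. Of the other 49 members 28 had r above 0 (57.1%), against 40.6% of all genes, and their median was 0.07.

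Of the members, Fasn had the highest r with the Scd2 map (0.74), above the 95th percentile of all genes. The r was 0.472, 0.636 and 0.702 within datasets 1 to 3, and 0.676 and 0.452 for the 2 Fasn rows taken singly. Fdps had 0.60, with 0.636, 0.460 and 0.378 within the datasets, and Acadvl had 0.57. Other members above 0.5 were Acadl (0.55), Acadm (0.51), Elovl6 (0.51) and Elovl5 (0.51). At the other end stood Acsl5 (-0.51), Fabp3 (-0.47) and Acsl4 (-0.44). Among the roles, 8 of 9 dehydrogenases and 5 of 6 sterol synthesis genes had r above 0 with Scd2. So did 4 of 6 oxysterol-binding proteins, 3 of 5 thioesterases, 2 of 5 synthetases and 2 of 6 apolipoproteins. In the role of Scd2, synthesis, elongation and desaturation, r was above 0 for 5 of 11 genes, Scd2 itself counted, with a median of -0.03. Over all genes the share above 0 was 40.6%.

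**Figure D5:**
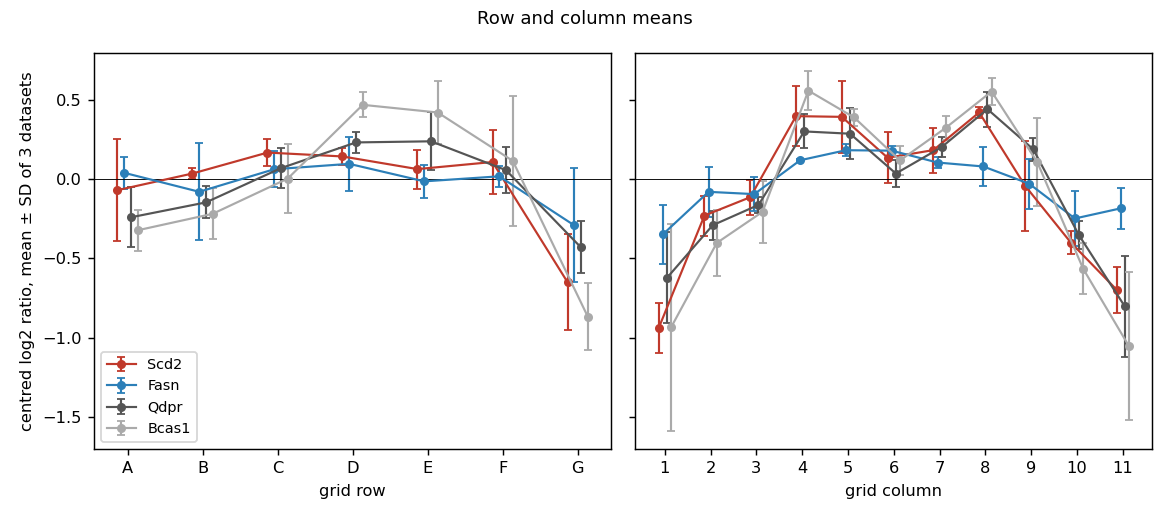
Row means (left) and column means (right) of the centred log2 ratio for Scd2, Fasn, Qdpr and Bcas1; points are means and bars SD over 3 datasets. Scd2, Qdpr and Bcas1 are above 0 from column 4 to column 8 and low in columns 1 and 11, whereas Fasn spans a smaller range, from -0.35 to 0.18 by column.

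The middle columns 5 to 7 were compared with the outer columns 1 to 3 and 9 to 11. None of the 50 members was called by limma, and 0% of all genes; at an unadjusted p under 0.05 there were 6 members (12%) and 13.2% of all genes. Scd2 had middle means of 0.34, 0.04 and 0.18 and outer means of -0.06, -0.42 and -0.64 in datasets 1 to 3, a difference of 0.56 ± 0.23 (adjusted p = 0.149). Fasn had differences of 0.33, 0.29 and 0.29 (0.30 ± 0.02, adjusted p = 0.223), the smallest spread of the members named in this comparison. Both genes were higher in the middle in every dataset, as were 16 of the 50 members in all, a larger share than the 18.2% of all genes. Lower in every dataset were 5 of the 50 members, a smaller share than the 20% of all genes. When only rows measured on every array were used, 2 of the 28 members left were called, Scd2 (adjusted p = 0.0109) and Fasn (0.0280), with the differences as above, and 201 of the 7049 genes left. Fdft1, the squalene synthase gene, had 0.26 ± 0.30. The largest differences in the opposite direction were those of Elovl7 (-0.14 ± 0.09), Acsl5 (-0.11 ± 0.13) and Acly (-0.11 ± 0.10). Without the 6 row D arrays of dataset 2, 0.295% of all genes were called, Scd2 had 0.62 ± 0.21 (adjusted p = 0.0799) and Fasn 0.34 ± 0.05 (0.149).

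Rows A and B were compared with rows F and G. None of the 50 members was called, against 0.109% of all genes (0.0256% higher in rows A and B and 0.0833% lower). At an unadjusted p under 0.05 there was 1 member (2%), against 9.03% of all genes. In every dataset 4 of the 50 members were higher in rows A and B, a smaller share than the 13.4% of all genes. Lower were 8 of the 50, against 19% of all genes. The member past an unadjusted p of 0.05 was Fdps, which had means of 0.26, 0.13 and 0.14 in rows A and B and of -0.26, -0.07 and -0.50 in rows F and G (difference 0.46 ± 0.23, adjusted p = 0.407). The share of missing or floor values was larger on arrays of rows A and B than of rows F and G in every dataset (medians of 2.21% against 1.17%, 2.46% against 1.18% and 1.42% against 0.910%), and the part of this in the Fdps difference was not tested. Apoc1 had 0.42 ± 0.58 and Fads1, the delta-5 desaturase gene, 0.27 ± 0.52, with SDs larger than the differences. Lower in rows A and B, without a call, were Acot9 (-0.29 ± 0.19), Fads2b (-0.26 ± 0.14) and Hmgcs1 (-0.26 ± 0.10). Hmgcs1 stood at 0.07 when only rows measured on every array were used, a reversed sign, and this setting kept 1 of its 2 rows. Scd2 had 0.23 ± 0.29 (adjusted p = 0.680).

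The sides of the grid were compared as mirror pairs, column 1 with 11, 2 with 10 and so on, over 29 pairs of positions. None of the 50 members was called, and 0% of all genes; unadjusted, 1 member (2%) and 3.34% of all genes had a p under 0.05. In every dataset 8 of the 50 members were higher in columns 1 to 5, against 13.2% of all genes, and 6 of the 50 were lower, against 10.8%. Scd2 had a difference of 0.01 ± 0.08 between the sides (adjusted p = 0.995), small beside its difference of -0.80 between perimeter and interior. The largest differences in either direction were those of Acad10 (0.28 ± 0.25), Acot10 (0.17 ± 0.30), Elovl2 (0.13 ± 0.08), Apoa4 (-0.17 ± 0.27), Acly (-0.13 ± 0.05) and Acot7 (-0.11 ± 0.13), each with an adjusted p of 0.958.

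Other genes of lipid metabolism, from lists outside the symbol rule, were read beside the members. Of the other fatty acid synthesis genes 7 of 13 were measured and 4 of these were called among positions, where 4.92% of all genes were. Tecr, the reductase that closes each elongation cycle, stood at 1.00, 0.55 and 0.55 at A5 (0.70 ± 0.26) and at -0.58 ± 0.35 at C11 (adjusted p = 2e-05). Slc25a1, the mitochondrial citrate carrier (adjusted p = 0.0030), Hacd3, a dehydratase of elongation (0.0277), and Me1, malic enzyme (0.0413), were also called. The calls were lost in 3 of 15 alternatives for Slc25a1 (adjusted p up to 0.463), in 7 of 16 for Hacd3 (up to 0.886), in 10 of 16 for Me1 (up to 0.751) and in 1 of 16 for Tecr (0.306). The Slc25a1 maximum at D5 (1.31 ± 1.86) was smaller than its SD.

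Of the other fatty acid oxidation genes 15 of 24 were measured and 3 were called, against the same 4.92% of all genes. Dbi, the acyl-CoA-binding protein, which is also abundant in glia, had an adjusted p of 5.4e-11. Dbi stood at 1.52, 0.83 and 0.71 at A7 (1.02 ± 0.44), at 0.85, 1.04 and 1.08 at E5 (0.99 ± 0.12), and at -1.13, -1.21 and -0.80 at F2 (-1.05 ± 0.22). The Dbi call held under all 16 alternatives. Etfa, an electron carrier of beta-oxidation (adjusted p = 0.0079), and Acat1, a mitochondrial thiolase (0.0375), were also called, and each lost its call in 7 of 16 alternatives (adjusted p up to 0.530 for Etfa and 1.00 for Acat1).

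Of the sterol sensing and transport genes 13 of 22 were measured and 1 was called, against 4.92% of all genes: Srebf1, the factor that drives fatty acid synthesis genes (adjusted p = 0.0203). Its call was lost in 5 of 16 alternatives (adjusted p up to 0.938). Srebf1 was highest at B5 (0.67 ± 0.13, n = 2) and lowest at F4 (-1.05 ± 0.68). B5 was also the highest position of Fasn and of Gstp1, and a link between Srebf1 and Fasn was not tested. None of the 6 measured of 14 other sterol synthesis genes was called (largest F 1.39, Lbr), nor any of the 11 measured of 19 sphingolipid and myelin lipid genes (largest F 1.4, Cers2). None of these lipid genes was called in a zone comparison.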

How the data were processed

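RNA of voxels and of whole brain was compared on 2-colour arrays. The authors deposited 1 table of log2 ratios, for which the scanner and the steps of normalization were not given in the sources used here. From the deposited log2 values, 99.9% of rows had a median within 0.001 of 0, so rows had been centred. The lowest value, -6.64, recurred in 0.483% of values and was treated as not measured, and 1.93% were missing. Each array was centred on its median (shift at most 0.353), rows with at least 80% of arrays measured in each dataset were kept, and rows of 1 symbol in the platform annotation were averaged. Of 20847 rows, 13164 had 1 symbol, 317 several and 7299 none. Differences among positions were tested with limma 3.58.1 in R 4.3.3 (moderated F, dataset as a block), and zones with limma on 1 difference per dataset, with Benjamini-Hochberg adjustment over 15608 genes. The dataset number names a shared harvest and dye, so it was kept as a block: deviations from position means correlated at a median of 0.237 within datasets and -0.12 between them, over 7555 genes. The code was tested on simulated data. Members and lists were chosen with earlier results of these data known. Genes are named as follows: every member that passed in any comparison and Scd2, the members with the largest and smallest F of each role and the 3 largest differences in either direction of each zone comparison, the called genes of the other lipid lists or else the 1 with the largest F, and the 6 genes with maps most like and 3 least like Scd2. Members beyond this rule were named for their p, their r with Scd2 or their rows after their values were seen. The number of arrays limits the precision.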

Additional observations from a re-analysis of the deposited data

How the results depend on the processing

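The call of Scd2 among positions held under all 16 alternatives (F between 3.71 and 6.63). The count of members called among positions, 2, was 4 with quantile normalization, 4 of 28 with rows measured on every array (624 of 7049 genes), 5 without the 6 row D arrays of dataset 2, 12 with array weights and 1 without the dataset block, and 1 to 2 without each replicate. The count over all genes, 768, was 1161 with quantile normalization, 2503 with array weights and 366 without the block, and 214 to 529 without each replicate. Between perimeter and interior, the 1 called member was lost (0 called) with floor values kept, with rows measured on at least 50% of arrays and without the dataset block, and 0 to 1 were called without each replicate. The 17 genes called there were 56 with quantile normalization, 4 with floor values kept, 128 with rows measured on every array and 0 without the block, and 0 to 50 without each replicate. In the middle columns, 2 members were called with rows measured on every array, and over all genes, where 0 were called, the counts were 60 with quantile normalization, 201 with rows measured on every array, 8 with values limited to within 3 of 0, 46 without the row D arrays, 5 at positions measured in all datasets, and 0 to 31 without each replicate. Between rows A-B and F-G, the 17 genes were 0 with quantile normalization, 1 with floor values kept, 154 with rows measured on every array, 5 at 50% of arrays, 26 with limited values, 10 without the block, 32 at common positions, and 0 to 8 without each replicate. The sign turned for Hmgcs1 between rows A-B and F-G (0.0729 with rows measured on every array) and for Scd2 between the sides, which is near 0 (-0.0192 without the row D arrays, -0.00783 without the 3 arrays of dataset 3 with most missing values, and -0.0216 to 0.0495 without each replicate). The cause of these changes was not tested. With 3 datasets, small differences between zones are beyond the precision of these arrays.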
